A study of Mus musculus with 11 samples.

Results

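The Kcnq1ot1 imprinted domain of mouse distal chromosome 7 was described across the 3 histone marks of a CUT&Tag-BS study in E14 embryonic stem cells. It was taken as 8 of the 49550 genes of a RefSeq gene table on chromosomes 1 to 19 and X: Ascl2, Cd81, Tssc4, Kcnq1, Kcnq1ot1, Cdkn1c, Slc22a18 and Phlda2, in order along the chromosome. Each gene was read as its body plus 5 kb on both sides (build mm10), which gave 422 windows of 1 kb among 2631624 in the genome. All 94 windows of Kcnq1ot1 lie inside the region of Kcnq1, and the flanks of Cd81 and Tssc4 and of Slc22a18 and Phlda2 overlap, so these members share calls and peaks.

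CUT&Tag-BS uses an antibody to bring a transposase to chromatin that carries a mark, and converts the released fragments with bisulfite, so that CpG methylation is read on DNA enriched for the mark. Calls also fall outside the peaks of a mark. H3K27me3 from 250000 cells had 281 calls in the Cd81 region, where no peak of that mark was listed. A level below is thus that of a library's calls, not of marked DNA alone. The cells (129/Ola background, grown with serum and leukemia inhibitory factor) carried no named genetic change or treatment. Bisulfite libraries were made for H3K4me1, found at enhancers and beside promoters, and H3K9me3, typical of heterochromatin, from 250000 cells and as runs 1 and 2, and for H3K27me3, the Polycomb mark, from 4000, 20000, 100000 and 250000 cells. A control without bisulfite from 250000 cells was made for each mark, and it gave peaks but no methylation calls. Run 1 and run 2 shared molecules by a check of their counts and were treated as 1 library read again. Each comparison below therefore sets 1 library against another, has no replicate check, and says nothing of spread between cultures.

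Kcnq1ot1 is a long non-coding RNA transcribed from a promoter inside an intron of Kcnq1, antisense to it. In mouse, that promoter is the imprinting control region of the domain: it carries DNA methylation on the maternal chromosome, while the paternal copy is unmethylated and transcribed, and the RNA acts in cis with Polycomb to keep neighbouring genes silent on the paternal chromosome. Cdkn1c, an inhibitor of cyclin-dependent kinases, Phlda2, a protein that restrains placental growth, Slc22a18, a membrane transporter, and Kcnq1, a potassium channel subunit, lie close to it. Ascl2, a transcription factor of the trophoblast, and Cd81 and Tssc4, a tetraspanin and a protein of the splicing machinery, lie farther out and are known to be imprinted mainly in the placenta. The calls in the files carry no allele label, so no value below belongs to a parental chromosome.

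The promoters of 4 members are shown, with the 2 letters of each CpG in capitals. RefSeq promoter windows (250 bases before to 50 bases after a start, GRCm38.p6) matched 6 of the 8 members. None was given for Kcnq1 and Cdkn1c. Both gene ends are reported for Cdkn1c, and the lower end alone for Kcnq1. The CpGs of all 32619 promoter windows checked lay at positions of the deposited table. The Kcnq1ot1 window at chr7:143296498-143296797 (minus strand) holds 9 CpGs, the Phlda2 window at chr7:143502475-143502774 (minus strand) 26, the Ascl2 window at chr7:142969215-142969514 (minus strand) 23 and the Slc22a18 window at chr7:143473539-143473838 (plus strand) 2, against a median of 7 over 32851 promoters.
Kcnq1ot1: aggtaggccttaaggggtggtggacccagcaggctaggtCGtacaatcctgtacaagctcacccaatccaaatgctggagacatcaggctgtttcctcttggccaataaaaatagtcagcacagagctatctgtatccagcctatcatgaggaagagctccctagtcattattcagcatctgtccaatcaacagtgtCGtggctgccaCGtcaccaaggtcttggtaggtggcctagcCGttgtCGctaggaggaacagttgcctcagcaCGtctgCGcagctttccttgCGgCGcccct
Phlda2: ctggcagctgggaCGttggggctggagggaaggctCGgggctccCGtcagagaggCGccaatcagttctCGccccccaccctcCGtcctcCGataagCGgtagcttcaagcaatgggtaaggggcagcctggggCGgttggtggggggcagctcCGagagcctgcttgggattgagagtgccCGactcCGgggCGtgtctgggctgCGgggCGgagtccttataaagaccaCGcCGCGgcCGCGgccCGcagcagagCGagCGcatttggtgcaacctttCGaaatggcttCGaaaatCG
Ascl2: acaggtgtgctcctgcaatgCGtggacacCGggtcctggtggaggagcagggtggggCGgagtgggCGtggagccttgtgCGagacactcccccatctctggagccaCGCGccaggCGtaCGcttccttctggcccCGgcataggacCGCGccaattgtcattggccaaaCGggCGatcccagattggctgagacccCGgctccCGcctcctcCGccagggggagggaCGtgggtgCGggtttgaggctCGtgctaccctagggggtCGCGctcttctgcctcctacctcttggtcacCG
Slc22a18: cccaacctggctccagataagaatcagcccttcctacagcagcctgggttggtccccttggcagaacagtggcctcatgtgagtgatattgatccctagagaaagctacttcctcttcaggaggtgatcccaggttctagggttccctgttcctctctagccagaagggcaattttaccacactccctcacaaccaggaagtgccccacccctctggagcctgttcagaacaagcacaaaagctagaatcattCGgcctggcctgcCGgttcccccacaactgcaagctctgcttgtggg
The motif CCAAT, searched on both strands, occurs 3 times in the Kcnq1ot1 window, with its first base 188, 148 and 67 bases before the start. At least 1 match is found in 37.4% of promoters and at least 3 in 3.37%. The Ascl2 window also holds 3 matches, the Phlda2 window 1 and the Slc22a18 window 0. The Cd81 and Tssc4 windows, not shown, hold 23 CpGs each.

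The depth of the libraries sets what can be seen here. The bisulfite libraries held from 378056 calls (H3K27me3, 4000 cells) to 37177077 calls (H3K27me3, 250000 cells). A level is methylated calls over all calls, in percent, with its 95% Wilson interval. Where 0 calls were methylated, any upper limit given is instead 3 over the number of calls, in percent. Several calls can come from 1 fragment or its PCR copies, and the intervals and limits of 0 counts therefore allow for counting error alone. Over the genome, the level of H3K9me3 run 2 was 81.9%, while H3K4me1 run 2 and H3K27me3 from 250000 cells were both at 32.5%. As a check of the cell label, 6 of the 7 listed embryonic stem cell genes with a start had an H3K4me1 peak within 500 bp of it. Among these 7, 1, Esrrb, had an H3K27me3 peak. Dppa5a, also listed, had no start. All 5 endoderm, fibroblast and neural genes with a start had an H3K27me3 peak, and 4 of them an H3K4me1 peak.

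At the Kcnq1ot1 start the DNA in H3K9me3 was methylated, while the DNA in H3K4me1 and in H3K27me3 was not. Within 500 bp of the start, H3K9me3 run 1 had 22 of 26 calls methylated (84.6%, interval 66.5 to 93.9%) and run 2 had 74 of 82 (90.2%, interval 81.9 to 95%). H3K4me1 had 0 of 25 in run 1 and 0 of 50 in run 2, which allows a level of up to 6.0%. H3K27me3 had 0 of 11 calls from 20000 cells, 0 of 24 from 100000 cells and 0 of 68 from 250000 cells, which allows up to 4.41%, and no call from 4000 cells. No library of H3K4me1 or H3K27me3 overlapped a library of H3K9me3 in level. The difference between H3K9me3 and H3K4me1, both run 2, was 90.2 percentage points (two-sided Fisher's exact test, Benjamini-Hochberg adjusted over 3867 gene starts, adjusted p = 2.40e-25). It lay at the 99.9th percentile of those starts, of which 1.84% were called higher in H3K9me3 (adjusted p under 0.05 and at least 20 points). Against the 250000-cell H3K27me3 library the difference was also 90.2 points (same exact test, adjusted p = 3.79e-31 over 3861 starts, of which 1.32% were called higher in H3K9me3). With run 1 in place of run 2 of H3K9me3 the difference from H3K4me1 was 84.6 points.

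The same contrast was seen CpG by CpG. A unified H3K9me3 peak of 2627 bp (chr7:143294960-143297586, 106 CpGs) lay over the start, from peaks of 2360 bp in run 1, 2514 bp in run 2 and 2014 bp in the control without bisulfite. Across it, 259 of 285 calls were methylated in H3K9me3 run 2 (90.9%), against 5 of 61 in H3K4me1 run 2 (8.20%) and 10 of 125 in the 250000-cell H3K27me3 library (8.0%). Of 45 CpGs with at least 3 calls in H3K9me3 run 2, 35 were at 80% or above, 10 lay between 20 and 80% and 0 at 20% or below. All 9 such CpGs of H3K4me1 run 2 were at 20% or below, as were 13 of 18 in H3K27me3, with the other 5 in between. No CpG of the peak had more than 11 calls in any library. At the 31 CpGs called in both libraries, the level was 86.7% in H3K9me3 and 6.67% in H3K4me1, and at the 56 CpGs shared with H3K27me3 it was 91.4% and 7.44%.

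**Figure D1:**
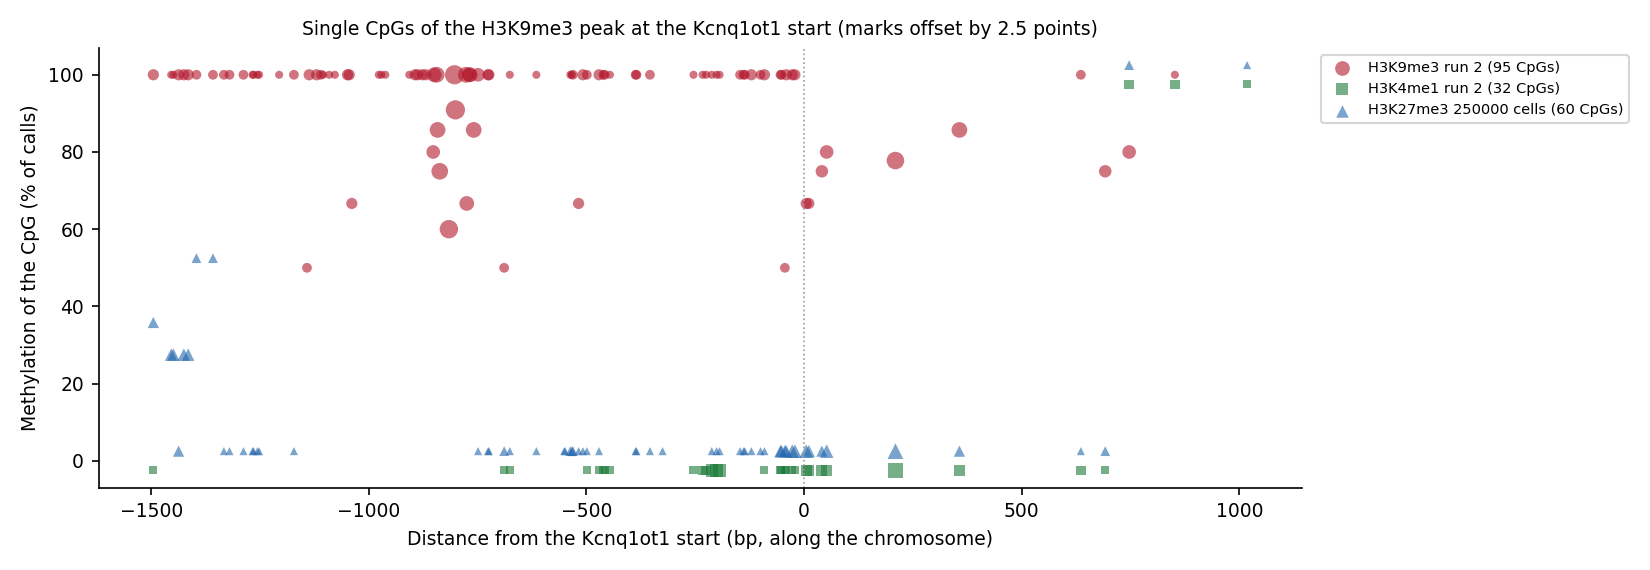
Methylation of each CpG in the H3K9me3 peak at the Kcnq1ot1 start (percent of calls, y axis) against its distance from the start in bp along the chromosome (x axis, negative values inside the gene), with marker area growing with the number of calls. The H3K9me3 points (circles) lie between 50 and 100%, and the H3K4me1 (squares) and H3K27me3 points (triangles) lie mostly at 0 except towards the edges of the peak.

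Before the start, the unmethylated stretch ended at the same place in H3K4me1 and H3K27me3. In H3K4me1 run 2 the 5 methylated calls of the peak fell on 3 CpGs more than 692 bp before the start, and the other 29 called CpGs had 0 methylated calls of 56. Few of those CpGs lie deep in the gene, and no inner edge was seen in this mark. In H3K27me3 from 250000 cells the longest run of called CpGs with no methylated call (50 CpGs, 96 calls) ended at the same CpG 692 bp before the start. It reached 1333 bp into the gene, but its called CpGs from 1333 to 1172 bp inside had 1 call each. No CpG from 1142 to 759 bp inside had a call in this library. The 100000-cell library had 3 of 56 calls methylated over those positions, at 3 CpGs from 1039 to 1049 bp inside the gene where the 250000-cell library had no call, and the 20000-cell library 0 of 13. Over the H3K4me1 stretch 91.0% of the 279 H3K9me3 run 2 calls were methylated, and over the H3K27me3 stretch 90.4% of 261.

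The 3 marks met at this start in the deposited peak lists, although with unequal weight. An H3K9me3 peak, a 647-bp H3K4me1 peak (chr7:143296443-143297089) and a 1001-bp H3K27me3 peak (chr7:143296235-143297235) lie within 500 bp of it. Peaks of all 3 marks within 500 bp were found at 6 of 32619 gene starts (0.0184%), and among the 6 members with a listed start at Kcnq1ot1 only. The H3K4me1 peak was in the lists of both runs and not in the control's, and the H3K27me3 peak was in the 250000-cell list only. Calls per CpG, relative to each library's genome mean, were 8.42 in both runs of H3K9me3 within 500 bp of the start, 3.29 and 3.34 in H3K4me1 runs 1 and 2, and 1.18 in H3K27me3 from 250000 cells. The H3K27me3 calls there were thus near the library's average density.

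Among 3319 gene starts with at least 10 calls in all 3 libraries, the level patterns nearest to that of Kcnq1ot1 by Euclidean distance over the 3 levels were those of Cnn3 (calponin 3, distance 1.42 points), Snrpn and Snurf (3.86), Nap1l5 (9.89) and LOC115488029 (11). Snrpn and Snurf share 1 start and are known to be imprinted, as is Nap1l5. The H3K9me3 level of Cnn3 (91.7%) rests on 12 calls, and that of Snrpn (90.5%) on 74. The H3K27me3 level of Snrpn (0%) and the H3K4me1 level of Nap1l5 (0%) rest on 10 calls each, the minimum. In all, 16 of the 3319 starts (0.482%) had H3K9me3 at least 50 points above both other marks, with Snrpn and Snurf counted separately.

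All 3 unified H3K9me3 peaks that touched a member overlapped Kcnq1ot1, with 9238 bp of peak in the gene body and 1039 bp past its start. They touched 2 of 8 members, Kcnq1ot1 and the Kcnq1 region around it (14.7% of all genes had an H3K9me3 peak), and 3.08% of the domain's windows, against 2.88% of windows in the genome. The other 2 lie in the body of the gene at chr7:143224403-143230768 and chr7:143235636-143236919. There H3K9me3 run 2 was 88.7% methylated (71 calls) and 87.5% (24 calls), H3K4me1 had no call in either run, and H3K27me3 from 250000 cells had 25 of 28 and 3 of 3 calls methylated. DNA in H3K9me3 and in H3K27me3 was thus mostly methylated at both of these peaks, and these few calls were not tested.

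H3K27me3 peaks covered most of the domain but little of the Kcnq1ot1 body (14.4% of its length). Its unified peaks reached 303 of 422 windows (71.8%), against 4.69% in the genome, 6 of 8 members had a peak (29.6% of all genes) and 5 of 8 were covered over at least 50% of their region (6.53% of all genes). A peak of 205918 bp (chr7:143298776-143504693) ran from the far side of the Kcnq1ot1 start through the end of Kcnq1 and through Cdkn1c and Slc22a18 to Phlda2, and was number 2 by width among 18122 unified peaks. In the 250000-cell library its main piece of 174548 bp was the widest of 13914 peaks, and in the 100000-cell library that of 171151 bp was the widest of 12669. A second peak of 91536 bp (chr7:143132020-143223555) covered much of the other side of Kcnq1, including the 3′ end of Kcnq1ot1. Cd81 and Tssc4 had no H3K27me3 peak in any list, while Ascl2 lay inside a peak of 33431 bp (chr7:142955819-142989249).

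**Figure D2:**
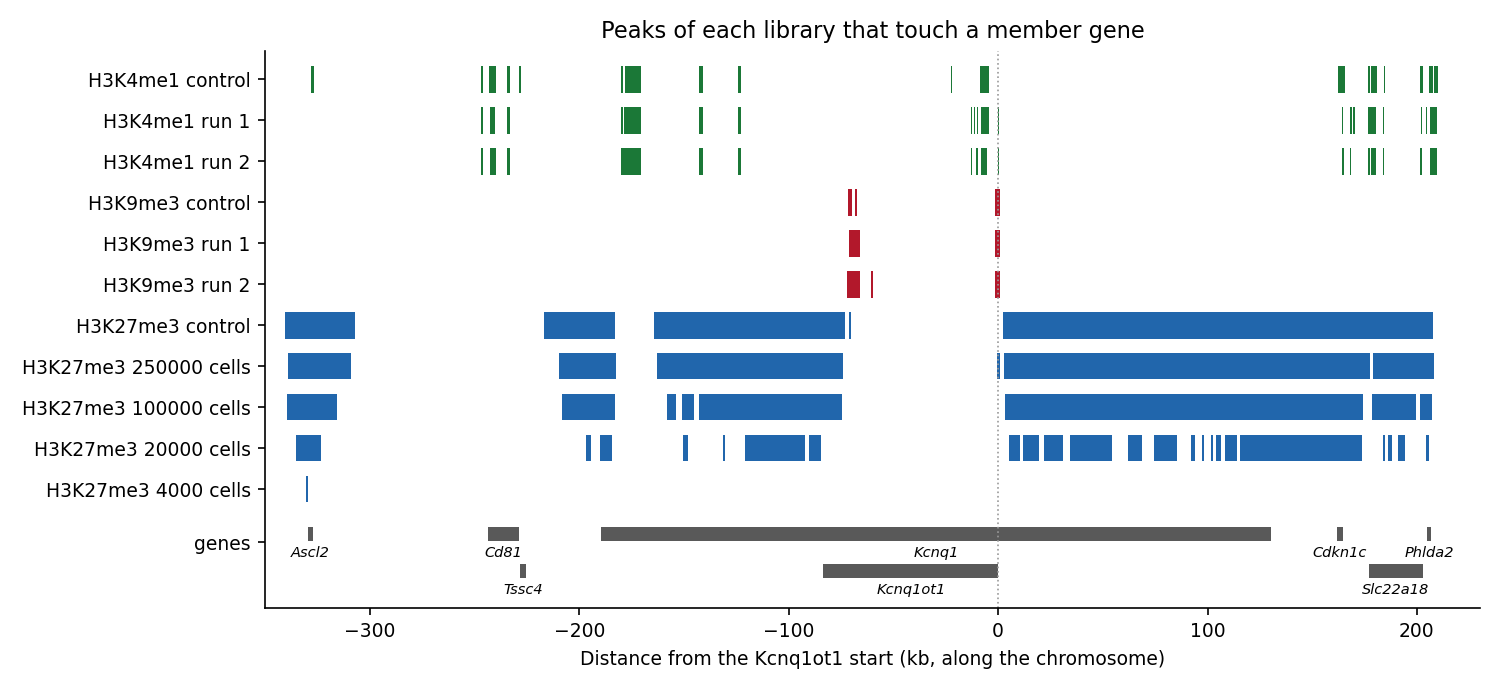
Peaks of each of the 11 libraries that touch a member gene (rows, coloured by mark) and the 8 gene bodies (bottom), along the distance from the Kcnq1ot1 start in kb. The wide H3K27me3 blocks on both sides leave a gap over most of Kcnq1ot1, and the 3 H3K9me3 peaks overlap that gene.

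The gap over Kcnq1ot1 was found in every H3K27me3 list with wide peaks. Between the flanking wide peaks it spanned 77.0 kb in the 250000-cell library, 77.4 kb in the 100000-cell library, 89.7 kb in the 20000-cell library and 75.2 kb in the control without bisulfite. It ran through the Kcnq1ot1 start and ended outside the gene, 2.88 kb, 3.07 kb, 5.19 kb and 2.23 kb past the start, in that order. At the other side it began 9.30, 9.07 and 10.4 kb inside the 3′ end of the gene in the 250000-cell, 100000-cell and control lists, and 1.04 kb outside the gene in the 20000-cell list. Inside the gap only 1001 bp of peak were listed in the 250000-cell library, 0 in the 100000-cell and 20000-cell libraries and 1261 bp in the control.

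Calls told the same order of stretches without any peak caller. In the 250000-cell H3K27me3 library, calls per CpG relative to the genome mean were 9.96 over Kcnq1 before Kcnq1ot1, 0.663 over the Kcnq1ot1 body, 10.1 over Kcnq1 past the Kcnq1ot1 start and 15.5 from the end of Kcnq1 to Phlda2. Ascl2 was at 31.7, and Cd81 with Tssc4 at 0.454. The 100000-cell library gave 8.66, 0.566, 8.49, 14.2, 27.1 and 0.355, and the 20000-cell library 6.62, 0.347, 6.49, 12.9, 24.9 and 0.318. From 4000 cells the values were 4.59, 0.103, 6.19, 11.7, 18.5 and 0, with 1 call in the whole Kcnq1ot1 body. In all 4 libraries the Kcnq1ot1 body and the Cd81 and Tssc4 stretch lay below the genome mean and the other 4 stretches above it. The density in the latter was lower where fewer cells were used, and the cause was not tested. Of the 6 stretches, H3K9me3 run 2 had its highest relative density in the Kcnq1ot1 body (3.14), and H3K4me1 run 2 was at 1.94 there and at 0.237 over Kcnq1 past the Kcnq1ot1 start.

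**Figure D3:**
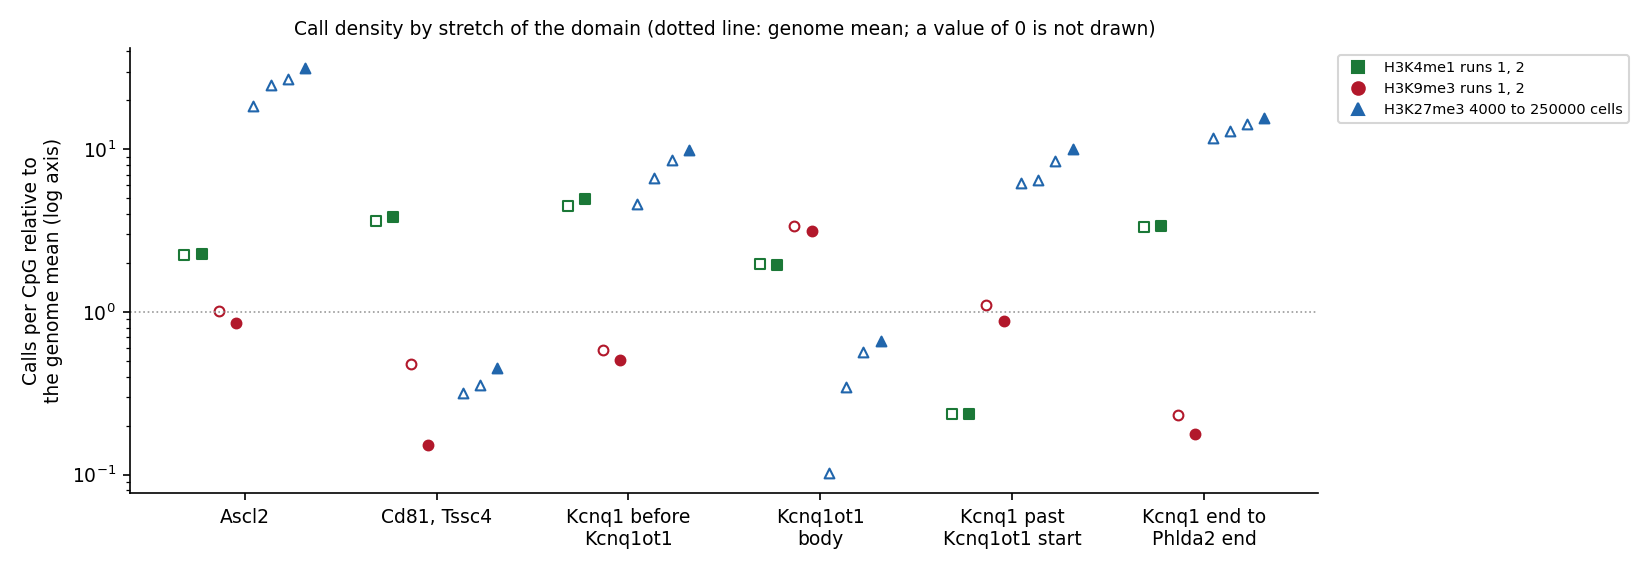
Calls per CpG relative to the genome mean of each library (y axis, logarithmic) in 6 stretches of the domain (x axis), with squares for H3K4me1, circles for H3K9me3 and triangles for H3K27me3, the latter from 4000 cells (left) to 250000 cells (right), and filled markers for the libraries compared in the tests. H3K27me3 drops from 9.96 to 0.663 at the Kcnq1ot1 body in the 250000-cell library, and H3K9me3 run 2 rises there to 3.14.

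In H3K27me3 the CpG-poor windows of the domain were methylated and the CpG-dense ones mostly were not. Over Kcnq1 past the Kcnq1ot1 start, H3K27me3 DNA was 89.5% methylated (17874 of 19964 calls, 250000 cells), and the 4000-cell, 20000-cell and 100000-cell libraries gave 91.1, 90.0 and 89.2%. Over Kcnq1 before Kcnq1ot1 it was 64.8%, and from the end of Kcnq1 to Phlda2 27.7%. Of 311 domain windows with at least 10 calls, 228 were above 80% and 25 below 20%, with a median of 88.9%. Windows with under 10 CpGs (290 windows) were 88.2% methylated, those with 10 to 29 CpGs (115 windows) 79.3% and those with 30 or more (17 windows) 5.56%. H3K4me1 run 2 gave 34.4, 32.7 and 5.90% in the same classes and H3K9me3 run 2 gave 88.6, 82.6 and 68.5%. Of the H3K4me1 run 2 calls in the domain, 1426 come from a 9849-bp peak in Kcnq1, at 19.1%. In the densest class the H3K9me3 level rests on the 2 windows at the Kcnq1ot1 start, which hold 181 and 92 of its 394 calls. Without them H3K9me3 run 2 was at 17.4% (21 of 121 calls) and run 1 at 5.88% (3 of 51), against 6.07% in H3K4me1 run 2 and 5.56% in H3K27me3, and these were not tested.

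**Figure D4:**
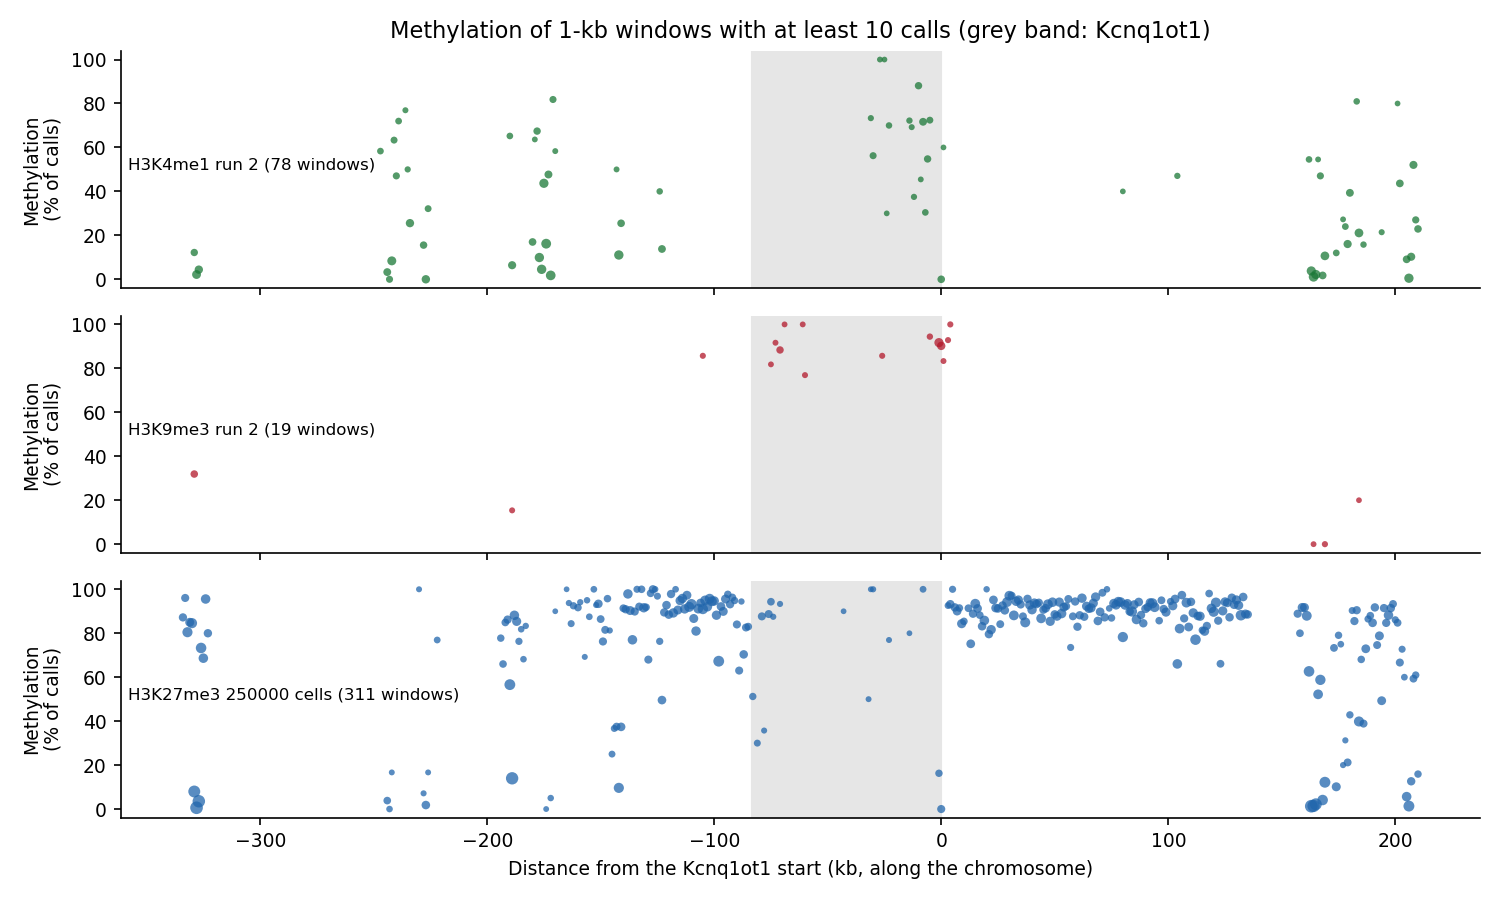
Methylation of the domain's 1-kb windows with at least 10 calls (percent of calls, y axis) along the distance from the Kcnq1ot1 start in kb (x axis), for H3K4me1 run 2, H3K9me3 run 2 and H3K27me3 from 250000 cells, with larger points for more calls and a grey band over Kcnq1ot1. Most of the 311 H3K27me3 windows lie near 90%, and 25 lie below 20%, at Ascl2, Cd81, Tssc4, Cdkn1c, Slc22a18 and Phlda2, at places in Kcnq1 and at the Kcnq1ot1 start, where the H3K9me3 windows stay near 90%.

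The starts of Phlda2 and Ascl2 and the upper end of Cdkn1c were nearly unmethylated in H3K27me3 and in H3K4me1. Within 500 bp of the Phlda2 start, H3K27me3 from 250000 cells was 1.24% methylated (11 of 885 calls) and H3K4me1 run 2 0.481% (1 of 208). In the Phlda2 window printed above 1 of 317 and 0 of 36 calls were methylated. Ascl2 was alike, with 1.70% of 5227 H3K27me3 calls and 3.77% of 106 H3K4me1 run 2 calls, and its few H3K9me3 run 2 calls (8) were all unmethylated. Its H3K27me3 level at the start was 4.76% (21 calls) from 4000 cells, 2.48% from 20000 cells and 1.98% from 100000 cells. The CpG-dense upper end of Cdkn1c (106 CpGs within 500 bp) was 1.21% methylated in H3K27me3 (3875 calls) and 1.89% in H3K4me1 run 2 (318 calls), while its lower end (14 CpGs) was 85.4% methylated in H3K27me3 (494 calls).

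Kcnq1 did not share this pattern within 500 bp of its lower end. Its CpG-dense lower end (54 CpGs) was at 23.7% in H3K27me3 from 250000 cells (2142 calls), 23.9% from 100000 cells and 27.2% from 20000 cells, at 34.9% in H3K4me1 run 2 (43 calls) and at 35.0% in H3K9me3 run 2 (20 calls). All 3 marks were thus intermediate over this span, with overlapping intervals (22.4 to 49.8% in H3K4me1, 22 to 25.6% in H3K27me3 and 18.1 to 56.7% in H3K9me3). The span crosses a border between unlike windows. The window chr7:143106001-143107000 was at 56.6% in H3K27me3 from 250000 cells (839 calls) and 65.2% in H3K4me1 run 2 (23 calls). The next window into the gene, chr7:143107001-143108000 (81 CpGs), was low in all 3 marks. It was at 14.0% in H3K27me3 (3997 calls), 6.41% in H3K4me1 run 2 (78 calls) and 15.4% in H3K9me3 run 2 (13 calls). Only H3K27me3 had a listed peak within 500 bp of this end. The Slc22a18 start has 6 CpGs, and its levels of 20% in H3K27me3 (15 calls) and 27.3% in H3K4me1 run 2 (11 calls) cannot be told apart at this depth. The Tssc4 start was at 1.65% in H3K27me3 (121 calls) and 0 of 111 calls in H3K4me1 run 2, and the Cd81 start at 3.77% (53 calls) and 1.49% (67 calls). Neither mark had a peak within 500 bp of the Tssc4 or the Cd81 start in any list. Of the 6 members' starts tested between H3K27me3 and H3K4me1, 0 were called (0.43% of 13021 starts were called higher and 0.261% lower), 0 had an unadjusted p under 0.05, and no other tool was run.

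All 8 members had a unified H3K4me1 peak (33.3% of all genes), and 15.2% of the domain's windows held one against 4.09% in the genome. Of the 22 peaks 12 overlapped an H3K27me3 peak, where 71.8% of the domain's windows held one. The share of such overlaps in the genome is not given here, so this count is no result about the members. The widest, of 9849 bp (chr7:143116310-143126158), lies in Kcnq1 in an interruption of the H3K27me3 blocks between positions 143113819 and 143132020, and was 19.1% methylated in H3K4me1 run 2 (1426 calls). Among the 19 peaks with at least 20 calls in that library, levels ran from 0 to 82.2% with a median of 20.5%. In the body of Kcnq1ot1 the H3K4me1 peak at chr7:143288020-143292009 was at 65.1% in run 1 (106 calls) and 61.1% in run 2 (157 calls), against 97.0% in H3K9me3 run 2 (33 calls) and 90.3% in H3K27me3 (31 calls). Neither H3K9me3 nor H3K27me3 had a peak there in any list. The next H3K4me1 peak into the gene, chr7:143285941-143287101, was at 77.3% and 82.2% in the 2 runs (22 and 45 calls). A small peak beside it, chr7:143284781-143285471, had 0 methylated calls of 1 and of 6, and the peak at the start 0 of 12 and 0 of 28.

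Tested window by window, few members' windows were called. Between H3K9me3 and H3K4me1, 1 of 8 windows with at least 10 calls in each library was higher in H3K9me3 and 0 lower, against 6.78% and 0.159% of 14485 windows in the genome. It is the window at the Kcnq1ot1 start (chr7:143296001-143297000), with 83 of 92 calls methylated against 0 of 50 (Fisher's exact test, adjusted p = 1.60e-26). Between H3K9me3 and H3K27me3, 3 of 12 windows were higher in H3K9me3 and 0 lower (2.5% and 0.289% of 16623 windows). They are the same window (0 of 76 calls in H3K27me3), the next one into the gene (91.7% against 16.3%, exact test, adjusted p = 5.94e-20) and a window in the 3′ part of Ascl2 (chr7:142967001-142968000), with 15 of 47 calls against 200 of 2506 (23.9 points, adjusted p = 3.22e-04). With H3K9me3 run 1 in place of run 2, 2 windows were called, and this run had 2 calls methylated of 5 in the Ascl2 window. No list held an H3K9me3 peak at Ascl2, so the H3K9me3 calls of that window lie outside the peaks of the mark. Between H3K27me3 and H3K4me1, 1 of 52 windows was higher in H3K27me3 and 0 lower (1.09% and 0.463% of 57920 windows). That window lies in an H3K4me1 peak of Kcnq1 (chr7:143173001-143174000), with 59 of 119 calls against 8 of 58 (35.8 points, exact test, adjusted p = 8.45e-04), and 0 windows were called with H3K4me1 run 1 in place of run 2. A share near its background is no result about the members.

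Over whole gene regions the members followed the genome. H3K9me3 exceeded H3K4me1 at 3 of the 4 members with at least 20 calls in both libraries, and 0 were lower, where 63.5% and 1.42% of 16597 genes were called. The levels were 87.4% against 30.3% at Kcnq1, 89.6% against 60.1% at Kcnq1ot1 and 33.3% against 7.12% at Ascl2, while Cdkn1c (20.5% against 7.34%) differed by 13.2 points and did not reach 20. The median difference was 27.9 points over the 4 members and 29 over all genes tested. The Ascl2 call rests on 69 H3K9me3 calls, and with run 1 of H3K9me3 the difference was 12.1 points (Fisher's exact test, adjusted p = 0.0617). No list held an H3K9me3 peak in the Ascl2 or Cdkn1c region, so their H3K9me3 calls lie outside the peaks of that mark. Of the 966 H3K9me3 run 2 calls in the Kcnq1 region, 596 are those of Kcnq1ot1, while 1426 of its 2587 H3K4me1 run 2 calls come from the 9849-bp peak and 19964 of its 37838 H3K27me3 calls from the part past the Kcnq1ot1 start.

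H3K27me3 exceeded H3K4me1 at 2 of 8 members and was lower at 0, where 27.4% and 2.72% of 25455 genes were called. They were Kcnq1 (78.7% against 30.3%, 48.4 points) and Slc22a18 (47.3% against 23.8%, 23.5 points, exact test, adjusted p = 4.64e-37). The other 6 differences ran from -4.61 points at Cd81 to 14.4 points at Tssc4, and neither of these genes had an H3K27me3 peak in any list. At CpGs called in both libraries the differences were 18.4 points at Kcnq1 and 4.87 at Slc22a18, so neither member was called there. H3K9me3 was called higher than H3K27me3 at 0 of 4 members and lower at 0 (30.1% and 3.23% of 22307 genes), with 17.8 points at Ascl2 and 16.3 at Kcnq1ot1 the widest differences. All 3 members other than Cdkn1c had an unadjusted p under 0.05 in that comparison and missed the 20 points, and no other tool was run.

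**Figure D5:**
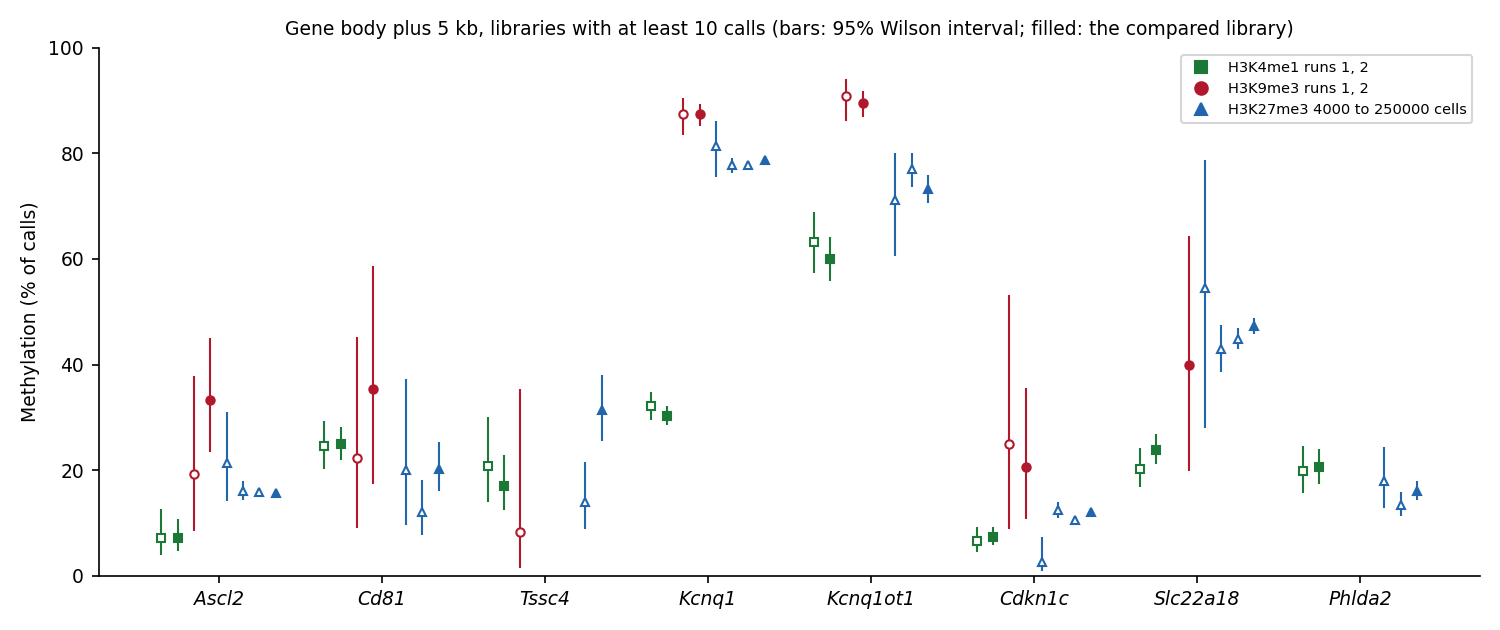
Methylation of each member (gene body plus 5 kb, percent of calls, y axis) in the bisulfite libraries with at least 10 calls, in order along the chromosome (x axis), with squares for H3K4me1, circles for H3K9me3 and triangles for H3K27me3, filled for the libraries compared and with 95% Wilson intervals as bars. Kcnq1 and Kcnq1ot1 have the highest levels in all 3 marks, and at Kcnq1 the H3K27me3 libraries (77.7 to 81.5%) lie far above the H3K4me1 runs (30.3 and 32.0%).

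The 10 other listed genes of distal chromosome 7, among them Th (tyrosine hydroxylase), Trpm5 (a cation channel), Nap1l4 (a histone chaperone) and Osbpl5 (a lipid transfer protein), had an H3K27me3 peak at 4 and coverage of at least 50% at 3: Th (100%), Trpm5 (60.9%) and Osbpl5 (97.0%). H3K9me3 peaks touched 4 of them. H3K9me3 exceeded H3K4me1 at 6 of 8 tested and was lower at 0. H3K27me3 exceeded H3K4me1 at 4 of 9 and was lower at 0. Between H3K9me3 and H3K27me3, 3 of 9 were higher in H3K9me3 and 1, Nap1l4, was lower.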

How the data were processed

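CpG methylation and peaks of 8 bisulfite and 3 control CUT&Tag libraries were read from the deposited files. The authors deposited raw counts of methylated and of all calls per CpG (21908008 CpGs, without normalization) for the 8 bisulfite libraries, and a peak list per library and per mark that holds positions only. Alignment was to mm10, and the submitters' processing notes name Bismark 0.23.0, Bowtie2 2.3.0, cutadapt 1.12, HOMER 4.10.3 and bedtools 2.29.2. How duplicates were treated is not given in the sources used here.

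Counts were summed over 1-kb windows (at least 10 calls in each library), gene bodies plus 5 kb (at least 20 calls) and 500 bp on each side of gene starts (at least 10 calls), on chromosomes 1 to 19 and X, which hold from 99.1 to 99.95% of a library's calls. A two-sided Fisher's exact test on run 2 of H3K4me1 and H3K9me3 and on the 250000-cell H3K27me3 library was adjusted over all features by Benjamini-Hochberg (python 3.11.15, scipy 1.17.1). A feature was called at an adjusted p under 0.05 and a difference of at least 20 points. In simulated independent calls at these depths, 200 windows were changed by 40 points, all to the same pair of intermediate levels. The test found 13.0% of them between H3K9me3 and H3K4me1, 38.5% between H3K27me3 and H3K4me1 and 16.0% between H3K9me3 and H3K27me3. These shares hold for that setting only, and an uncalled window says little.

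At CpGs with at least 5 calls in both runs, the mean chi-square between runs, which is 1 for separate molecules, was 0.390 for H3K4me1, 0.722 for H3K9me3 and 1.08 between the 100000-cell and 250000-cell H3K27me3 libraries. Run numbers were therefore taken to name repeat reads of 1 library, which the labels do not state. The runs also differ in read length (35 bp in run 1 and 75 bp in run 2). The members, lists and tests were chosen with earlier results of these data known. Named features are the 8 members, the called windows and the 5 gene starts nearest to Kcnq1ot1 in level. Alternatives covered call minimums, thresholds, flanks, window offsets, shared CpGs, single CpG means, runs, cell numbers and peak lists.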

Additional observations from a re-analysis of the deposited data

How the results depend on the processing

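The difference between H3K9me3 and H3K4me1 at the Kcnq1ot1 start ran from 82.9 to 93.8 points over its 7 alternatives and passed in each that had a test. Of 117 alternatives for the main counts, shares and this difference, 75 gave the identical value, 25 moved within tolerance (up to 1.5 times for a count, and within the interval for a share) and 17 moved further. Within tolerance, members called between H3K9me3 and H3K4me1 fell from 3 to 2 at shared CpGs and without H3K9me3 run 2, windows called between H3K9me3 and H3K27me3 fell from 3 to 2 at 40 points and without H3K9me3 run 2, and the share of windows with an H3K9me3 peak fell from 3.08% to 1.90% in the control's own list. The windows called higher in H3K9me3 than in H3K4me1 numbered 2 with windows shifted by 500 bp. Those called higher in H3K27me3 than in H3K4me1, 1 as reported, numbered 2 with flanks of 10 kb, a threshold of 10 points or shifted windows, 0 at 40 points and 0 without H3K4me1 run 2, 4 with both runs summed and 3 with all 4 H3K27me3 libraries summed. With the run number as a replicate block (a stratified test of both runs), 1 window was higher in H3K9me3 than in H3K4me1 and 0 lower, as without it, and the runs share molecules, so this is no pairing of cultures. Member genes called between H3K27me3 and H3K4me1 fell from 2 to 0 at shared CpGs, and those between H3K9me3 and H3K27me3 rose from 0 to 2 with gene bodies alone, 1 with flanks of 10 kb and 2 at shared CpGs. The share of windows with an H3K4me1 peak was 10.7% when 50% of the window had to be covered and 8.06% with peaks wider than 2 kb, and that with an H3K27me3 peak was 0.474% in the 4000-cell list, 46.2% in the 20000-cell list and 67.1% in the 100000-cell list.

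For single members, H3K27me3 minus H3K4me1 changed sign at Ascl2 (-0.41 points with the gene body alone, -1.14 at shared CpGs), Cd81 (5.15 with the body alone, 6.36 with flanks of 10 kb), Tssc4 (-4.42 with the body alone, -3.02 at shared CpGs, -2.98 with the 100000-cell library), Phlda2 (0.12 with the body alone, 15.0 with flanks of 10 kb), Kcnq1ot1 (-5.60 at shared CpGs) and Cdkn1c (-0.32 at shared CpGs). With flanks of 10 kb it was 27 points at Tssc4, then called, and 13.4 at Slc22a18, no longer called. The Ascl2 difference between H3K9me3 and H3K4me1 was 11.7 points at shared CpGs, and that between H3K9me3 and H3K27me3, not called as reported, was -5.23 as a mean of single CpGs. The Kcnq1 difference between H3K9me3 and H3K4me1 was 36.8 points as such a mean. Shared CpGs hold fewer calls, and beyond that the cause was not tested. The 4000-cell library had no call at the Kcnq1ot1 start, and H3K9me3 had under 20 calls at Cd81, Tssc4, Slc22a18 and Phlda2, which were not tested with it.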
